A study of Mus musculus with 8 samples.

Results

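The genes described here make up the oxidative phosphorylation machinery of the mouse: 13 protein-coding genes of the mitochondrial genome and 91 nuclear genes, 104 in all of the 37991 gene IDs counted. They were chosen by symbol, as protein-coding genes whose name begins with Nduf, Uqcr, Sdha, Sdhb, Sdhc, Sdhd, Cox4, Cox5, Cox6, Cox7, Cox8, Atp5 or mt-, and no measured value entered the choice. Of 130 symbols with these beginnings, 25 were tRNAs, rRNAs or pseudogenes and were left out, as was Cox6a2. No gene fell in the stretch of chromosome 13 from 46 to 66 Mb that the rule also leaves out. The prefixes also take in genes that are not subunits, and those named here are examples, not a full list. Cox4nb shares only its name with the Cox4 genes, and Ndufaf1 to Ndufaf4 are assembly factors of complex I. Atp5l-ps1 is named as a pseudogene although annotated as protein-coding. Ndufb8 is present under 2 gene IDs, the second a short overlapping locus.

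Oxidative phosphorylation passes electrons from NADH and succinate through complexes I, II, III and IV of the inner mitochondrial membrane to oxygen, and complex V, the ATP synthase, uses the proton gradient that complexes I, III and IV build. Complex II is built from nuclear-encoded subunits. The other complexes join nuclear subunits with subunits encoded in mitochondrial DNA, so that 2 genomes have to supply the parts. Mitochondrial mRNAs are cut from long transcripts of the whole circular genome, and nuclear copies of mitochondrial DNA are scattered over the chromosomes.

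RNA was sequenced from B-cell-biased lymphoid progenitors, early marrow cells that lean to the B lineage, taken from the bone marrow of mice by magnetic enrichment of Kit-positive cells and a FACS sort. The 4 H2afy_KO pools came from H2afy-/- mice, H2afy being the gene for the histone variant macroH2A1, and the 4 H2afy_WT pools from H2afy+/+ mice. Mice were 5 to 12 weeks old, no treatment is named, and each pool held RNA of 5000 to 15000 cells of 2 to 3 mice. The sources used here do not give the deleted part of H2afy, nor whether pools share mice, and p-values therefore cover only the spread between pools.

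Pools held 21330088 to 29029765 counts. H2afy itself was at 1660 ± 238 CPM in the H2afy_KO pools and 2270 ± 288 CPM in the H2afy_WT pools (SD, n = 4 each), with no overlap, a log2 fold change of -0.45 (SE 0.15) and an adjusted p of 0.504 in edgeR's quasi-likelihood test, CPM being counts scaled to the pool's total after TMM adjustment. As the deleted part is not known here, counts over the whole gene do not check the label. The 12 markers of B-biased lymphoid progenitors were detected in both groups, at a sum of 6960 to 8880 CPM in H2afy_KO and 9430 to 11800 CPM in H2afy_WT. The sum was thus lower in H2afy_KO without overlap. By edgeR's test, 8 of the 12 were lower at an unadjusted p under 0.05, beside 3.69% of all genes tested. Without overlap 6 were lower, beside 2.35%, and 0 passed an adjusted p under 0.05. Estimates were positive for 2 of the 12. Immunoglobulin genes took 3.51, 1.0, 19.6 and 13% of the counts in H2afy_WT pools 1 to 4 and 0.401, 10.1, 39.4 and 33.7% in H2afy_KO pools 1 to 4, and the 12 plasma cell markers, none of them at 0 in every pool, summed to 678 to 9330 CPM in H2afy_WT and 266 to 21200 CPM in H2afy_KO. In such bulk samples, fewer cells of a type and less RNA per cell cannot be told apart.

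The mitochondrial genes differ in how much of their sequence also stands elsewhere in the genome, which matters for reads of 50 bases. A stretch of chromosome 1, chr1:24618374-24623023 (4650 bases, NCBIM37), repeats bases 6394 to 11042 of the mitochondrial genome in exact 50-base windows. The windows below show the contrast. All are on the plus strand of NCBIM37, and capitals are not used in them because every base counts alike. The first pair has an exact copy on chromosome 1 and the second pair has no other copy in the 211 sequences of the assembly.
mt-Co2, chrM:7330-7379, copy at chr1:24622038-24622087: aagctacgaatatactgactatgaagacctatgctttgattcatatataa
mt-Co3, chrM:8974-9023, copy at chr1:24620394-24620443: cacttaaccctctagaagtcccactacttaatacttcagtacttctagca
mt-Cytb, chrM:14692-14741, no copy: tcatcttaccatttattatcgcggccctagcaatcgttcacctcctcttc
mt-Nd1, chrM:3205-3254, no copy: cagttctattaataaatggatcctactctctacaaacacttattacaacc

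Every 50-base window had such a copy in mt-Co2 and mt-Co3, which encode core subunits of cytochrome c oxidase, in mt-Atp6 and mt-Atp8 of the ATP synthase membrane part, and in mt-Nd4l of complex I, and 99.0% of windows had one in mt-Nd3. The share was 62.2% in mt-Nd4 and 51.1% in mt-Co1, 8.29% in mt-Nd2 and 7.61% in mt-Nd5, and 0 in mt-Cytb, mt-Nd1 and mt-Nd6. The chromosome 1 copy begins within mt-Co1 and shares 430 of its 1496 windows. A second copy, at chr2:22443711-22445167, shares 411 windows. This gene therefore has windows of both kinds, shown next.
mt-Co1, chrM:5882-5931, no copy: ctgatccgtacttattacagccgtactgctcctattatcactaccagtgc
mt-Co1, chrM:6441-6490, copy at chr1:24622927-24622976: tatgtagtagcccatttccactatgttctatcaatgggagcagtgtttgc

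Counted levels of the 13 mitochondrial genes spanned a wide range, and the genes copied almost throughout were at its low end. Per kilobase of transcript, the mean over the 8 pools was 2150 CPM for mt-Cytb, the cytochrome b of complex III, 1670 CPM for mt-Nd1 and 1180 CPM for mt-Co1, the catalytic subunit of cytochrome c oxidase. The level per kilobase was 522 CPM for mt-Nd5, 439 CPM for mt-Nd6, 316 CPM for mt-Nd2 and 273 CPM for mt-Nd4. All 6 genes whose windows were copied at 99.0% or more stood below these: mt-Atp6 at 68.5, mt-Atp8 at 42.6, mt-Co3 at 40.2, mt-Co2 at 25.4, mt-Nd4l at 2.67 and mt-Nd3 at 1.71 CPM per kilobase. The sources used here do not say whether reads with several positions were counted, and its part in these levels was not tested. Whole-gene CPM was also divided by the number of windows without a copy, which keeps any counted reads from copied windows in the CPM. Per 1000 such windows this gave 2490 CPM for mt-Co1, 2250 for mt-Cytb, 1760 for mt-Nd1 and 749 for mt-Nd4. It gave 580 for mt-Nd5, 484 for mt-Nd6 and 362 for mt-Nd2. These are levels only if reads from copied windows were not counted, which is not known here.

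**Figure D1:**
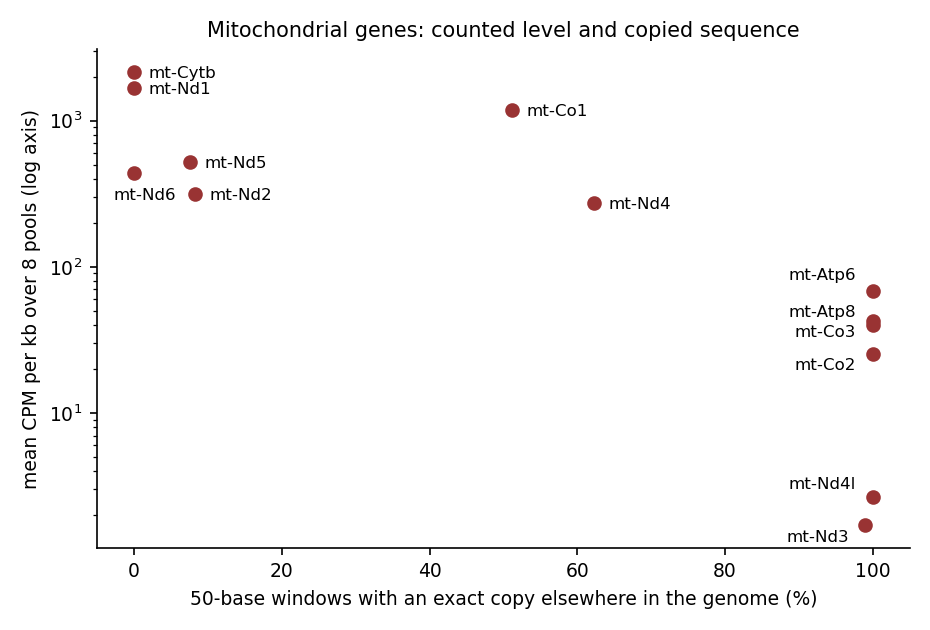
Each point is a mitochondrial protein gene, with the percent of its 50-base windows that have an exact copy elsewhere in NCBIM37 on the x axis and its mean CPM per kilobase over 8 pools on the y axis (log axis). The 6 genes at 99.0% or more lie between 1.71 and 68.5 CPM per kilobase, and the other 7 between 273 and 2150.

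Some loci of the nuclear copies carry gene IDs of their own in the count table. Gm10925, the annotated chromosome 1 copy of mt-Atp8 and mt-Atp6, was at 97.9 ± 17.5 CPM in H2afy_WT and 104 ± 30.1 CPM in H2afy_KO (SD, n = 4 each), above mt-Atp6 itself at 42.2 ± 9.95 and 51.1 ± 19.1 CPM. Gm13340, a chromosome 2 copy of mt-Co1, was at 9.51 ± 2.47 and 9.69 ± 3.61 CPM against 1850 ± 521 and 1800 ± 380 CPM for mt-Co1. Annotated overlaps add to the uncertainty of single genes: mt-Atp8 and mt-Atp6 share 43 bases and mt-Nd4l and mt-Nd4 share 7 on the same strand, and mt-Nd6 shares 14 with mt-Nd5 on the opposite strand, which the library kit does not mark. The 5 genes with under 10% of windows copied, mt-Cytb, mt-Nd1, mt-Nd5, mt-Nd6 and mt-Nd2, are therefore given beside the full set below. Having few copies does not settle the strand of a read. Without strand marks, RNA of the opposite strand across mt-Nd6 could count for that gene, and its part was not tested.

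Among those 5, mt-Cytb was at 2800, 1800, 1990 and 3340 CPM in H2afy_WT pools 1 to 4 and at 2460, 1440, 3260 and 2580 CPM in H2afy_KO pools 1 to 4. The highest pool was H2afy_WT 4, closely followed by H2afy_KO 3, the lowest was H2afy_KO 2, and the groups overlapped, with a log2 fold change of -0.03 (95% interval -0.61 to 0.56). mt-Nd1, which anchors the membrane arm of complex I beside its quinone site, was at 1880, 1430, 1400 and 1810 CPM in H2afy_WT and 1710, 1120, 1990 and 1460 CPM in H2afy_KO, a log2 fold change of -0.05 (95% interval -0.47 to 0.36). mt-Nd5, a proton-pumping subunit of complex I, was at 1180, 621, 662 and 1400 CPM in H2afy_WT and 910, 507, 1340 and 1000 CPM in H2afy_KO, with a log2 fold change of -0.04 (95% interval -0.82 to 0.74). All 3 genes were high in H2afy_WT 1, H2afy_WT 4 and H2afy_KO 3 and lowest in H2afy_KO 2. For mt-Nd6, the subunit encoded on the other strand of the genome, values were 262, 185, 188 and 270 CPM in H2afy_WT against 221, 160, 317 and 218 CPM in H2afy_KO (log2 fold change 0.02, 95% interval -0.45 to 0.48), and for mt-Nd2 365, 267, 281 and 412 CPM against 345, 225, 397 and 336 CPM (log2 fold change -0.02, 95% interval -0.46 to 0.41). All 5 were lowest in H2afy_KO 2, and their highest pool was H2afy_WT 4 in 3 genes and H2afy_KO 3 in 2.

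mt-Co1 was at 1920, 1510, 1410 and 2560 CPM in H2afy_WT and 1680, 1350, 2260 and 1900 CPM in H2afy_KO, again with H2afy_WT 4 and H2afy_KO 3 on top, and its log2 fold change was -0.04 (95% interval -0.52 to 0.44). mt-Nd4 was at 364, 288, 301 and 443 CPM in H2afy_WT and 420, 267, 507 and 417 CPM in H2afy_KO, a log2 fold change of 0.21 (95% interval -0.25 to 0.66). Its groups overlapped as well. Of the genes with nearly all windows copied, mt-Co3, at 44.7, 11.8, 24.5 and 39.4 CPM in H2afy_WT and 24.2, 16.6, 60.4 and 30.4 CPM in H2afy_KO, had a log2 fold change of 0.12 with a 95% interval of -1.06 to 1.31. For mt-Co2 the log2 fold change was 0.17 (95% interval -0.83 to 1.17), for mt-Atp6 0.27 (95% interval -0.29 to 0.83) and for mt-Atp8 0.26 (95% interval -0.43 to 0.94). mt-Nd3 and mt-Nd4l rested on 3 to 37 counts a pool, and their log2 fold changes of 0.59 (95% interval -0.92 to 2.10) and 0.01 (95% interval -1.24 to 1.27) came with the widest intervals of all members.

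Summed over the 13 mitochondrial genes, pools 1 to 4 stood at 8903, 6155, 6326 and 10333 CPM in H2afy_WT and at 7844, 5151, 10255 and 8008 CPM in H2afy_KO. The group means were 7930 ± 2040 and 7810 ± 2090 CPM (SD, n = 4 each), the groups overlapped, and the highest pool was 2.01-fold above the lowest. The 91 nuclear genes summed to 12896, 11050, 11308 and 10737 CPM in H2afy_WT and to 13484, 11525, 11354 and 10524 CPM in H2afy_KO, means of 11500 ± 961 and 11700 ± 1250 CPM, with a 1.28-fold span. Nuclear sums were highest in the pools numbered 1 of either genotype, while mitochondrial sums were highest in H2afy_WT 4 and H2afy_KO 3. Their ratio, mitochondrial over nuclear, was 0.690, 0.557, 0.559 and 0.962 in H2afy_WT and 0.582, 0.447, 0.903 and 0.761 in H2afy_KO, means of 0.692 ± 0.190 and 0.673 ± 0.200. The ratio differed 2.15-fold between pools and the genotypes overlapped, although the lowest pool, H2afy_KO 2, lay below all H2afy_WT pools and the highest, H2afy_WT 4, above all H2afy_KO pools.

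**Figure D2:**
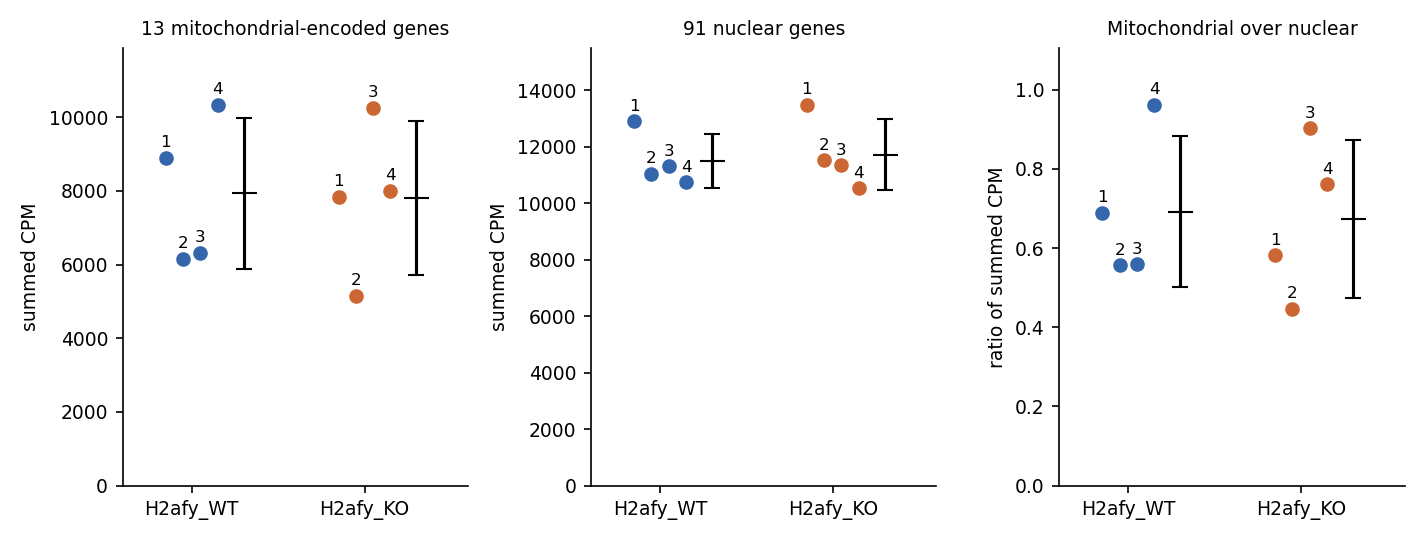
Summed CPM of the 13 mitochondrial genes, summed CPM of the 91 nuclear genes and the ratio of these sums are plotted for each pool, numbered by replicate, with the group mean and SD as bars (4 pools a group). Mitochondrial sums span 5151 to 10333 CPM and nuclear sums 10524 to 13484 CPM, and the genotypes overlap in all panels.

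Within groups, the mitochondrial genes varied more than the nuclear ones: the median coefficient of variation was 31.3% over the 13 mitochondrial genes and 24.7% over the 5 with few copied windows, against 14.5% over the 84 nuclear genes tested. For comparison, the 731 genes at or above the lowest of those 5 had a median of 16.4%, and the 2183 genes within the level quartiles of the nuclear members had 14.5%. All genes tested had a median of 22.3%. Granulocyte and monocyte markers summed to 6650, 1550, 2150 and 10000 CPM in H2afy_WT pools 1 to 4 and to 1170, 1930, 3380 and 3180 CPM in H2afy_KO, so H2afy_WT 4 was the highest pool in this sum too. Plasma cell markers summed to 2390, 678, 9330 and 6550 CPM in H2afy_WT and to 266, 5610, 21200 and 17900 CPM in H2afy_KO. They were highest in H2afy_KO 3, followed by H2afy_KO 4, whose mitochondrial sum was 8008 CPM. Erythroid and megakaryocyte markers were highest in H2afy_WT 4 (1020 CPM) and plasmacytoid dendritic cell markers in H2afy_KO 3 (2790 CPM). T and natural killer cell markers were highest in H2afy_KO 1 (411 CPM). The part of other cells in the mitochondrial spread was not tested.

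**Figure D3:**
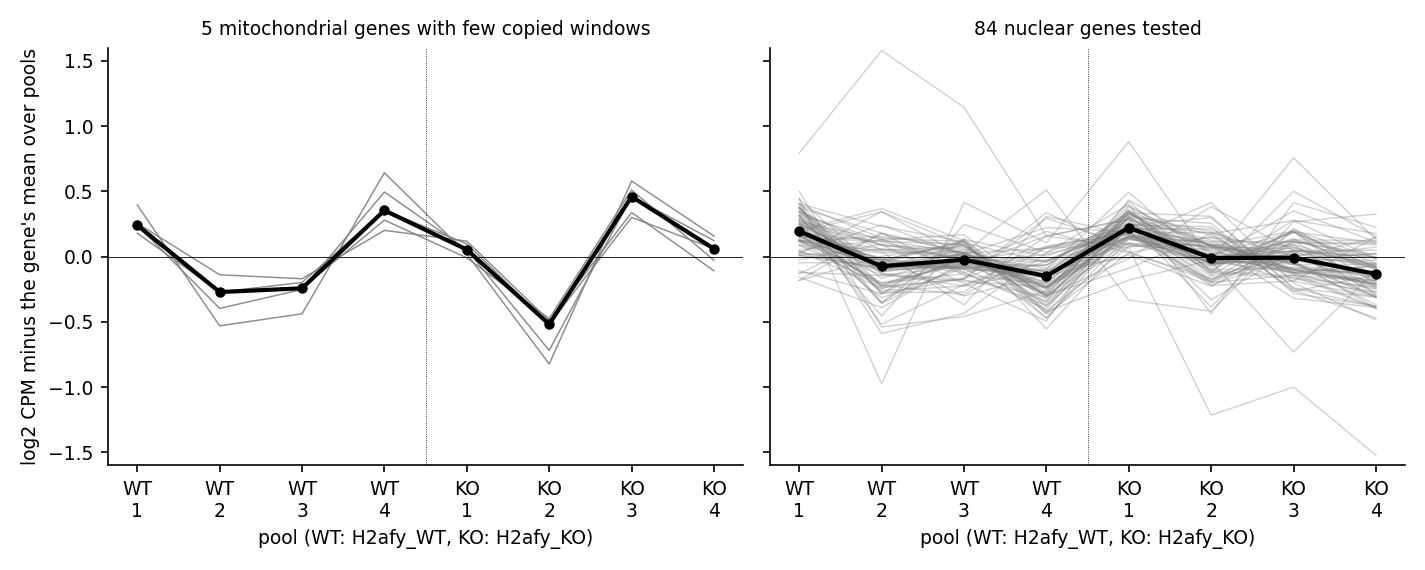
Log2 CPM minus the gene's mean over 8 pools is plotted by pool, 1 grey line per gene and the median in black, for the 5 mitochondrial genes with under 10% of windows copied and for the 84 nuclear genes tested. All 5 mitochondrial lines are lowest in H2afy_KO 2, while the nuclear median stays between -0.15 and 0.22.

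No gene of the set passed the test between genotypes. Of 97 members with enough counts to be tested, 0 were called higher and 0 lower in H2afy_KO at an adjusted p under 0.05 by edgeR, as was true of all 13722 genes tested (0% in either direction), and DESeq2 and limma-voom (the latter with 0.00729% of all genes called higher and 0.0219% lower) also called 0 members. At an unadjusted p under 0.05, edgeR gave 1 member higher, Ndufs3, and 1 lower, Cox7a1, shares of 1.03% each beside 3.88% of all genes higher and 3.69% lower. The same 2 genes, no others among the members, had an unadjusted p under 0.05 in DESeq2, where the background was 4.73% higher and 4.26% lower and where 0.335% of all genes were called higher and 0.525% lower after adjustment. A replicate block in edgeR also gave 0 members called, against 4 genes higher (0.0292%) and 11 lower (0.0802%) in the whole table. The block left 6 members higher at an unadjusted p under 0.05, Cox4i1, Cox5a, Cox8a, Ndufa1, Ndufb7 and Ndufs3, or 6.19% beside 6.23% of all genes, and Cox7a1 lower beside 5.74%.

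Fold changes were small as well as uncalled. The median log2 fold change was 0.02 over the 13 mitochondrial genes, 0.03 over the 84 nuclear genes tested and 0.00 over all genes tested, and the median absolute change was 0.08 over the 97 members against 0.19 over all genes, 0.12 over the 2183 genes at levels like the nuclear members and 0.13 over the 731 genes at or above the lowest of the 5 mitochondrial genes with few copied windows. Of the 97, 56 had a positive and 41 a negative estimate, 57.7% positive beside 50.1% of all genes and 42.3% negative beside 49.9%. Of those 2183 genes, 962 were positive and 1221 negative. The 95% interval lay within a log2 change of 1 in either direction for 92 of 97 members (65.4% of all genes) and within 0.5 for 65 (26.7% of all genes). By origin, the narrower bound held for 62 of 84 nuclear and 3 of 13 mitochondrial genes. The 5 members with a wider interval than 1 were Cox7a1, mt-Co2, mt-Co3, mt-Nd3 and mt-Nd4l. Without H2afy_KO 3 and 4, the 2 pools richest in immunoglobulin counts, the mitochondrial median was -0.27 and the nuclear median 0.13.

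**Figure D4:**
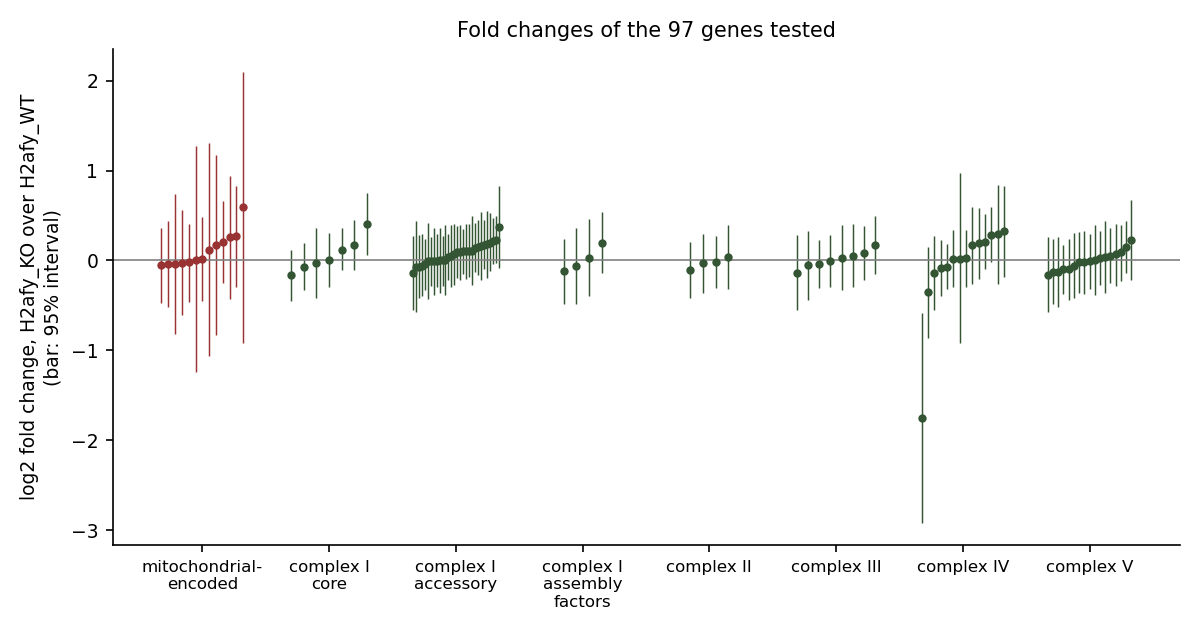
Log2 fold changes, H2afy_KO over H2afy_WT, are plotted for the 97 genes tested, with 95% intervals from edgeR, grouped by complex and ordered by size within each group. All intervals except those of Ndufs3, above 0, and Cox7a1, at -1.75, include 0, and mt-Nd3, mt-Nd4l, mt-Co3, Cox7a1 and mt-Co2 have intervals that pass 1 in size.

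Complex I takes electrons from NADH. Its 7 nuclear core subunits, which carry the flavin and the iron-sulfur clusters, had a median log2 fold change of 0.00, from -0.16 for Ndufs1 to 0.41 for Ndufs3. Ndufs3 (ENSMUSG00000005510, chr2:90734791-90744984, NCBIM37, minus strand), a subunit of the hydrophilic arm near the quinone site, was at 35.5, 30.2, 38.5 and 34.4 CPM in H2afy_WT and 47.7, 36.2, 56.0 and 44.1 CPM in H2afy_KO. Only H2afy_KO 2 lay within the H2afy_WT range. Its log2 fold change was 0.41 (SE 0.16, 95% interval 0.06 to 0.75), with an unadjusted p of 0.0245 and an adjusted p of 0.579 in edgeR's quasi-likelihood test. Of its 50-base windows 17.8% had a copy elsewhere, and its exons share 88 bases with Kbtbd4 on the opposite strand. Ndufs8, a core subunit with iron-sulfur clusters and the highest core level per kilobase at 203 CPM, stood at 195 ± 21.6 CPM in H2afy_WT and 195 ± 26.2 CPM in H2afy_KO (SD, n = 4 each). Ndufv1, the flavin subunit, was at 139 ± 3.55 and 151 ± 12.8 CPM.

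The 30 tested accessory subunits of complex I had a median log2 fold change of 0.08, 20 of them above 0 and 10 below, with none past the adjusted threshold. Ndufv3 (ENSMUSG00000024038, chr17:31657060-31668266, NCBIM37, plus strand), a small accessory subunit of the flavin module, was at 65.8, 64.8, 68.0 and 66.8 CPM in H2afy_WT and 71.3, 71.1, 91.3 and 77.4 CPM in H2afy_KO. It was the only member whose H2afy_KO pools all lay above the H2afy_WT pools, beside 2.18% of all genes, and its log2 fold change was 0.23 (SE 0.12, adjusted p = 0.693). Ndufa4, long placed with complex I and now counted with cytochrome c oxidase, had the highest level per kilobase of the accessory group at 497 CPM, and its values of 294, 215, 245 and 222 CPM in H2afy_WT and 300, 276, 221 and 184 CPM in H2afy_KO gave a log2 fold change of 0.01. Its relative Ndufa4l2, known for its hypoxia response, was barely detected, at 0 to 9 counts a pool. Among the assembly factors, Ndufaf3 was at 24.2 ± 2.89 CPM in H2afy_WT and 27.8 ± 3.89 CPM in H2afy_KO and Ndufaf2 at 46 ± 6.91 and 47.0 ± 11.8 CPM (SD, n = 4 each).

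Complex II, succinate dehydrogenase, also works in the tricarboxylic acid cycle. Sdha, its flavoprotein, was at 686 ± 31.7 CPM in H2afy_WT and 676 ± 88.8 CPM in H2afy_KO (SD, n = 4 each), a log2 fold change of -0.02. Sdhb, the iron-sulfur subunit, was at 371, 391, 364 and 301 CPM in H2afy_WT and 449, 401, 318 and 296 CPM in H2afy_KO, with the highest and the lowest pool both in H2afy_KO and a log2 fold change of 0.04 (95% interval -0.32 to 0.39). Sdhd, a membrane anchor, was at 299, 261, 250 and 295 CPM and at 322, 243, 236 and 225 CPM in the same order, a log2 fold change of -0.11 (95% interval -0.42 to 0.21). The median over all 4 subunits was -0.03.

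Complex III hands electrons to cytochrome c. Its 8 nuclear members had a median log2 fold change of 0.01, 4 above 0 and 4 below. Uqcrfs1, the Rieske iron-sulfur protein, was at 18.5, 23.8, 19.0 and 18.2 CPM in H2afy_WT and 23.2, 22.0, 20.9 and 23.2 CPM in H2afy_KO, and only H2afy_WT 2 reached the H2afy_KO range (log2 fold change 0.17, 95% interval -0.15 to 0.49). Uqcr10, a small subunit, was at 116 ± 21.6 and 105 ± 25.2 CPM and had the highest nuclear level per kilobase of this complex, 255 CPM, against 15.5 CPM for Uqcrfs1 and 2150 CPM for the mitochondrial mt-Cytb of the same complex.

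Complex IV, cytochrome c oxidase, has several subunits that occur as a widely used and a tissue-restricted isoform, and the widely used ones were the more abundant here. Cox4i1 was at 454, 370, 435 and 383 CPM in H2afy_WT and 558, 419, 500 and 424 CPM in H2afy_KO, whereas its isoform Cox4i2, associated with lung and low oxygen, was at 0.501 ± 0.374 CPM and 0.724 ± 0.989 CPM (SD, n = 4 each). Cox4i1 gave a log2 fold change of 0.21 (SE 0.14, 95% interval -0.10 to 0.52, adjusted p = 0.760) and the highest nuclear level per kilobase of all members, 652 CPM. Cox6b1 was at 137 ± 20.1 and 139 ± 20.3 CPM, and the testis-associated Cox6b2 at 10.9 ± 2.45 and 8.54 ± 1.77 CPM. Cox8a was at 84.6, 67.1, 70.5 and 59.5 CPM in H2afy_WT and 97.3, 74.6, 88.0 and 83.0 CPM in H2afy_KO, groups that overlapped, with a log2 fold change of 0.28 (SE 0.14, adjusted p = 0.677). Cox8b and Cox8c, associated with muscle and testis, had 0 to 3 counts in any pool.

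Cox7a1 (ENSMUSG00000074218, chr7:30969190-30971047, NCBIM37, plus strand), the heart and skeletal muscle isoform of subunit 7a, was the member with the largest change, and the nuclear member with the lowest level of those tested. It had 31, 48, 32 and 18 counts in H2afy_WT pools 1 to 4 and 20, 6, 5 and 5 in H2afy_KO, or 1.05, 1.81, 1.34 and 0.676 CPM against 0.635, 0.261, 0.303 and 0.211 CPM. All H2afy_KO values lay below all H2afy_WT values, H2afy_KO 1 just below H2afy_WT 4. It was the only member lower without overlap, beside 2.35% of all genes. The log2 fold change was -1.75 (SE 0.53, 95% interval -2.92 to -0.58), with an unadjusted p of 0.00717 and an adjusted p of 0.473 in edgeR's quasi-likelihood test. Its widely used counterpart Cox7a2 was at 103 ± 14.6 CPM in H2afy_WT and 96.9 ± 12.0 CPM in H2afy_KO, and Cox7a2l, which helps join complexes III and IV, at 156 ± 13.6 and 149 ± 10.0 CPM. Cox6c, a small structural subunit, varied most among the other nuclear genes tested (43.3% within groups), at 137, 51.1, 134 and 108 CPM in H2afy_WT and 185, 98.0, 60.5 and 93.4 CPM in H2afy_KO, and its exons share 250 bases with Vps13b on the opposite strand.

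Complex V makes ATP. Its 17 tested nuclear members had a median log2 fold change of -0.01, 8 above 0 and 9 below. Atp5a1, the alpha subunit of the catalytic head, had the highest nuclear CPM of all members, 903 ± 84.6 in H2afy_WT and 842 ± 47.7 in H2afy_KO (log2 fold change -0.10), and Atp5b, the beta subunit with the catalytic sites, was at 357 ± 46.1 and 394 ± 23.6 CPM (log2 fold change 0.15). Per kilobase, Atp5c1, the gamma subunit of the central stalk, led the complex with 475 CPM. Its values were 615, 478, 528 and 526 CPM in H2afy_WT and 691, 546, 539 and 505 CPM in H2afy_KO, with the pools numbered 1 highest in either genotype. The genes Atp5g1, Atp5g2 and Atp5g3 encode the same c subunit of the rotor ring: Atp5g3 was at 119 ± 16.7 and 121 ± 14.6 CPM, Atp5g2 at 82.5 ± 18.1 and 83.3 ± 14.2 CPM and Atp5g1 at 77.5 ± 14.8 and 70.9 ± 12.2 CPM (SD, n = 4 each), but all windows of Atp5g2 had a copy elsewhere and its level is uncertain. Atp5d, the delta subunit, was at 72.6, 40.9, 50.5 and 57.0 CPM in H2afy_WT and 70.0, 44.8, 70.4 and 73.4 CPM in H2afy_KO, lowest in the pools numbered 2.

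Set beside each other per kilobase, tested nuclear members had medians of 92.7 CPM in complex I and 180 in complex III. The medians were 115 CPM in complex IV and 166 in complex V. These groups follow the gene symbols, so that Cox4nb counts in complex IV and Ndufa4 in complex I. Assembly factors of complex I were left out. The mitochondrial partner was higher in complex III, with mt-Cytb at 2150 CPM. Mitochondrial complex I genes with few copied windows, at 316 to 1670 CPM, were above the nuclear median of that complex. Of these, mt-Nd6 at 439 and mt-Nd2 at 316 CPM lay below the highest nuclear gene, Ndufa4, at 497. In complex IV, mt-Co1 stood at 1180 CPM over its whole length although 51.1% of its windows were copied, above the highest nuclear gene, Cox4i1, at 652. In complex V, both mitochondrial genes were copied throughout, and their levels of 42.6 and 68.5 CPM are uncertain. Copies also touch nuclear members, though less: 41 of 91 had no copied window, 73 were under 10%, and 5 were over 50%, namely Atp5g2, Atp5l, Cox5b, Cox7a2l and Atp5l-ps1.

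**Figure D5:**
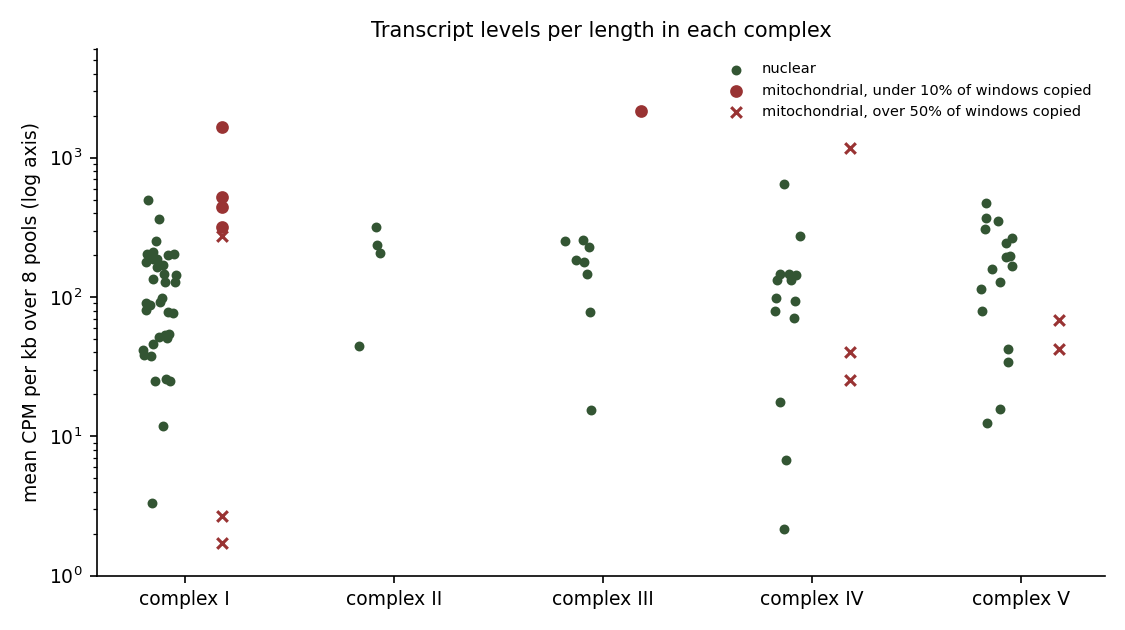
Mean CPM per kilobase over 8 pools (log axis) is plotted for each tested gene by complex, nuclear genes as small green points, mitochondrial genes with under 10% of windows copied as red circles and those with over 50% as red crosses. mt-Cytb, at 2150, stands above all 8 nuclear genes of complex III, whose highest is at 255.

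The 7 members with too few counts for the test were Cox4i2, Cox7b2, Cox8b, Cox8c, Ndufa4l2, Atp5l-ps1 and the second Ndufb8 ID. Atp5l-ps1 had 0 counts in all pools, which allows a level of up to 0.0149 CPM over the 8 pools together (3 counts, counting error only). Among the 7 tissue-restricted isoforms listed (Cox4i2, Cox6b2, Cox7a1, Cox7b2, Cox8b, Cox8c and Ndufa4l2), only Cox6b2 and Cox7a1 had enough counts.

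A feature that the choice by name did not use is promoter sequence. Promoters of 71 nuclear symbols, 250 bases before to 50 after the start, were matched in RefSeq (GRCm38.p6). The core site of NRF1, a factor long tied to respiratory chain genes, was searched as GCGC, any base and TGCGC on either strand, and stood in 18 of them (25.4%), against 5.19% of 27025 genes and 11.5% of 9045 genes tested here. AAGATGGC, a YY1 site, was found in 9 (12.7%, against 5.20% of genes tested), and CCGGAAGT, the ETS site bound by GABP, in 5 (7.04%, against 9.02% of genes tested). Matches of different motifs overlapped in 0 places. The 250 bases before the start of Atp5g2, a c subunit gene, and of Ndufaf4, a complex I assembly factor, serve as examples of an NRF1 match, which is in capitals.
Atp5g2, GRCm38.p6, chr15:102671048-102671297, minus strand: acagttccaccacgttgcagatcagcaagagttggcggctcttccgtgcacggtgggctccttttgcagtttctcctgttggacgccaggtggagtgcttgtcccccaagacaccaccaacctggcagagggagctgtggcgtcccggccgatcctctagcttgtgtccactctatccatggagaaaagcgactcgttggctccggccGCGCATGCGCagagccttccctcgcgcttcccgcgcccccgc
Ndufaf4, GRCm38.p6, chr4:24897833-24898082, plus strand: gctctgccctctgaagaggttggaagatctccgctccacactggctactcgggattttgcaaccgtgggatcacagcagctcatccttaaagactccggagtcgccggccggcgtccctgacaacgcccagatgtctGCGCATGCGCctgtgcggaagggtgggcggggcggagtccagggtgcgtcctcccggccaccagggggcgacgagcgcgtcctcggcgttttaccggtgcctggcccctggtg
A match is a description of the letters and no evidence of binding. Of these 2 genes, Atp5g2 had a log2 fold change of 0.01 and Ndufaf4 of -0.12.

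Genes that serve the machinery from outside the set were read from lists. Of 10 regulators of nuclear respiratory genes, 0 passed the adjusted threshold and 0 an unadjusted p under 0.05, with a median log2 fold change of -0.13. Nrf1 was at 113, 102, 100 and 109 CPM in H2afy_WT and 99.6, 91.7, 84.7 and 109 CPM in H2afy_KO, overlapping, and Gabpb1, a partner of GABP, at 100, 84.1, 84.2 and 73.0 CPM against 79.4, 70.1, 72.1 and 65.8 CPM (log2 fold change -0.25, SE 0.13, adjusted p = 0.690). The 16 genes of mitochondrial DNA replication and transcription had a median of 0.03 and 0 calls by edgeR. Tfam, which packages mitochondrial DNA and serves its transcription, was at 69.6, 58.2, 49.3 and 56.8 CPM in H2afy_WT and 72.1, 68.1, 56.4 and 52.8 CPM in H2afy_KO. Top1mt, the mitochondrial topoisomerase, was at 13.3, 7.78, 8.71 and 11.2 CPM against 16, 14.2, 15.2 and 15.4 CPM, with no overlap but an adjusted p of 0.522 (log2 fold change 0.56, SE 0.20). Mterfd3, of the family of mitochondrial transcription terminators, was at 25.5, 25.6, 24.4 and 25.9 CPM in H2afy_WT and 24.0, 18.4, 16.4 and 17.9 CPM in H2afy_KO, lower without overlap, with an adjusted p of 0.579 (log2 fold change -0.40, SE 0.15). Beside these, 2.18% of all genes were higher and 2.35% lower without overlap, and 3.88% and 3.69% had an unadjusted p under 0.05 in edgeR. Of 28 tested assembly factors outside the prefixes, 0 passed at either level and the median was 0.07.

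Among 17 genes of mitochondrial RNA processing, 0 were called by edgeR and 1, Fastkd3, was lower with an unadjusted p under 0.05, beside 3.69% of all genes. Fastkd3, of the FASTK family of mitochondrial RNA-binding proteins, was at 51.8, 58.2, 50.5 and 48.4 CPM in H2afy_WT and 34.4, 29.9, 27.6 and 34.3 CPM in H2afy_KO, so that all H2afy_KO pools lay well below all H2afy_WT pools. Its log2 fold change was -0.73 (SE 0.13, 95% interval -1.02 to -0.43), with an adjusted p of 0.175 in edgeR's quasi-likelihood test and of 0.000325 in DESeq2, the only tool and setting that called it. The list excludes only chromosome 13 from 46 to 66 Mb, the stretch around H2afy. Linkage of Fastkd3 to the targeted gene was not tested. Fastk, of the same family, was higher without overlap, at 19.9, 19.9, 17.0 and 18.8 CPM in H2afy_WT and 21.1, 20.6, 25.7 and 27.9 CPM in H2afy_KO (log2 fold change 0.33, SE 0.15, adjusted p = 0.672). The median log2 fold change of the 17 was 0.04.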

How the data were processed

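RNA was measured in 8 pools of sorted bone marrow progenitors, 4 per genotype, with single reads of 50 bases. The authors deposited a table of raw, whole-number counts for Ensembl gene IDs. Reads were aligned with HISAT2 2.0.6 to mm9, per the submitters' processing notes, and the sources used here give neither the gene counter nor how it treated strand or reads with several positions. Totals were 21330088 to 29029765 counts a pool. GENCODE M1 (NCBIM37, the assembly of mm9) named 37205 of 37991 IDs and 786 had no match. No pool repeated another (chi-square per degree of freedom of at least 101 over 28 pairs).

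The test was edgeR (4.0.16, R 4.3.3), the quasi-likelihood test on TMM-scaled libraries after filterByExpr (minimum count 10), with Benjamini-Hochberg adjustment over all 13722 genes tested, threshold 0.05. The procedure was tested on simulated data. CPM use TMM-scaled totals. Levels per kilobase use the length of the coding transcript with the longest coding sequence. Exon sequences were cut into all 50-base windows and searched for exact matches on both strands of NCBIM37. The biological coefficient of variation was 0.39.

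Alternatives were DESeq2 (1.42.0), limma-voom (limma 3.58.1), RLE and upper-quartile factors, other filters, totals without mitochondrial genes, a table without immunoglobulin genes, a covariate for their share, a replicate block and left-out pools. Replicate numbers are shared between the genotypes. Deviations of same-numbered pools from their group means correlated at 0.19, 0.19, 0.36 and 0.41, all above the bound set for pairing, although H2afy_KO 1 correlated best with H2afy_WT 2 (0.52) and H2afy_KO 3 with H2afy_WT 4 (0.45), and the labels do not say what a number marks. The main fit therefore used no pairing, and the blocked values are given beside it where they move a count.

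Genes named were the 13 mitochondrial genes, in each complex the gene with the highest level per kilobase and that with the smallest p, the isoform sets, and the gene with the smallest p in each list. Sdha, Atp5a1, Atp5b, Ndufv1, Ndufs1, Cox6c, Tfam, Nrf1, Mterfd3, Fastk, Ldha, the nuclear copies of mitochondrial genes and the genes of the promoter examples were chosen after their values were seen. The members and lists were chosen with earlier results of these data known.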

Additional observations from a re-analysis of the deposited data

Results flagged for a closer look

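In 9 of 104 groups of 4 pools checked, 1 pool stood apart from the other 3 by Dixon's criterion, and chance alone marks about 1 group in 20. In H2afy_KO, mt-Atp6 was at 79.7 CPM in pool 3 against 40.7 to 42.0 CPM in the others, Atp5d at 44.8 CPM in pool 2 against 70.0 to 73.4, Ndufaf3 at 33.6 CPM in pool 2 against 25.5 to 26.6, and the glycolytic enzyme gene Eno1 at 499 CPM in pool 1 against 334 to 356. In H2afy_WT, Atp5g1 was at 99.5 CPM in pool 1 against 67.5 to 71.8 CPM and Uqcrfs1 at 23.8 CPM in pool 2 against 18.2 to 19.0. Cox8b at 0.0607 CPM in H2afy_KO 3, Cox8c at 0.0607 CPM in H2afy_KO 3 and Cox8c at 0.0837 CPM in H2afy_WT 3 stood apart only because the other 3 pools had 0 counts, and rest on 1 or 2 counts.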

How the results depend on the processing

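No setting called a member. Calls over all genes, 0 as reported, were 5 with upper-quartile factors, 5 without immunoglobulin genes, 16 without a filter, 2 with at least 5 CPM in 4 samples, 118 in DESeq2, 4 in limma-voom, 15 with the replicate block and 3 with the immunoglobulin share as a covariate, and from 0 to 1 when leaving out each pool (1 without H2afy_KO 4). The replicate block changed no other call. Leaving out a pool gave medians of -0.18 to 0.22 over mitochondrial genes, -0.06 to 0.11 over nuclear genes, -0.05 to 0.11 over assembly factors and -0.04 to 0.07 over genes of mitochondrial DNA. Estimates that changed sign included small ones, but also mt-Nd3 at 0.59 and mt-Atp8 at 0.26 in the main fit, with the cause not tested. Without both H2afy_KO 3 and 4 they were 0.02 for Atp5g1, 0.05 for Cox7a2, 0.00 for Cox7a2l, 0.00 for mt-Atp6, -0.07 for mt-Atp8, -0.44 for mt-Co2, -0.55 for mt-Co3, -0.32 for mt-Nd3, -0.01 for mt-Nd4, -0.47 for mt-Nd4l, -0.23 for mt-Nd6, 0.05 for Sdhd and 0.13 for Uqcr10. In limma-voom they were -0.01 for Atp5g2, -0.03 for Cox6b1, -0.13 for Ndufa4, -0.05 for Ndufaf2, -0.04 for Ndufs8 and -0.04 for Sdhb. The replicate block gave -0.01 for mt-Nd6, -0.01 for Ndufa4 and 0.00 for Ndufs8, the covariate -0.14 for mt-Nd4l and -0.01 for mt-Nd6, and upper-quartile factors or no filter 0.00 for Ndufs8. Ranges over left-out pools that crossed 0 were -0.02 to 0.15 (Atp5c1), -0.24 to 0.01 (Atp5g1), -0.09 to 0.14 (Atp5g2), -0.05 to 0.11 (Atp5g3), -0.09 to 0.12 (Cox6b1), -0.17 to 0.00 (Cox7a2), -0.11 to 0.12 (Ndufa4), -0.08 to 0.15 (Ndufaf2), -0.08 to 0.08 (Ndufs8), -0.08 to 0.13 (Sdhb), -0.02 to 0.40 (mt-Atp6), -0.07 to 0.39 (mt-Atp8), -0.17 to 0.16 (mt-Co1), -0.21 to 0.47 (mt-Co2), -0.34 to 0.37 (mt-Co3), -0.20 to 0.15 (mt-Cytb), -0.18 to 0.08 (mt-Nd1), -0.13 to 0.11 (mt-Nd2), -0.42 to 0.32 (mt-Nd4l), -0.26 to 0.20 (mt-Nd5) and -0.18 to 0.15 (mt-Nd6). At 5 CPM in 4 samples, Cox7a1, mt-Nd3, mt-Nd4l and Mrps34 gave no value. Among genes tested and named, counts were lowest for mt-Nd3, mt-Nd4l and Cox7a1, at 3 to 48 a pool.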

Other observations

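Neighbouring metabolic pathways gave no calls either. Of 17 tricarboxylic acid cycle genes, 0 passed the adjusted threshold or an unadjusted p under 0.05 in edgeR, with a median log2 fold change of -0.01, and the gene with the smallest p, Sucla2, a subunit of succinyl-CoA synthetase, was at 105 ± 15.3 CPM in H2afy_WT and 125 ± 22.0 CPM in H2afy_KO (SD, n = 4 each). The 16 glycolysis genes had a median of -0.06 and 0 calls at either level. Eno1, an enolase, was at 598, 423, 407 and 512 CPM in H2afy_WT and 499, 356, 334 and 354 CPM in H2afy_KO, and Ldha, a lactate dehydrogenase subunit, at 871, 614, 573 and 705 CPM against 802, 501, 510 and 495 CPM, overlapping in both cases. Read by replicate number, a pairing that the labels do not give, both were lower in H2afy_KO in 4 of 4 pairs. The share of all genes with such a pattern was not counted, and Ldha was chosen after its values were seen. The unadjusted p in edgeR's quasi-likelihood test was 0.0877 for Eno1 and 0.215 for Ldha. The adjusted p of Eno1 was 0.703 without and 0.227 with the replicate block in edgeR.

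The 76 tested genes of the mitochondrial ribosome had a median log2 fold change of -0.01, with 34 estimates above 0 and 42 below and 0 calls at either level. Mrps34 was at 3.16 ± 0.352 CPM in H2afy_WT and 4.78 ± 1.62 CPM in H2afy_KO (SD, n = 4 each), with an adjusted p of 0.690 in edgeR's test. Among 7 carriers and channels the median was 0.01. Ucp2, an uncoupling protein family member, was at 1270, 693, 632 and 1070 CPM in H2afy_WT and 696, 467, 625 and 862 CPM in H2afy_KO (log2 fold change -0.47, SE 0.25, adjusted p = 0.708). Cyc1, which holds the heme of cytochrome c1, was at 54.6 ± 6.65 and 58.6 ± 0.671 CPM.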
